A study of Rattus norvegicus with 18 samples.

Results

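The 10 genes described here encode secreted plasma proteins of the rat liver that belong to the positive acute phase response, and they were followed over the 6 groups of the series. A gene was taken where its probe set on the array was annotated with a single gene symbol, and all 10 met this condition with 1 probe set each, out of 18166 genes with such a probe set. They were A2m, Itih3, Itih4, Serpina3n and Spink1, which encode protease inhibitors or relatives of them, Orm1 and Cp, which encode carrier proteins, and Lbp, Lcn2 and Crp, which encode proteins that bind microbial products or damaged cells. Adult male Sprague-Dawley rats provided liver tissue, and 3 rats per group were each measured on 1 Rat Gene 2.0 ST array, which gives 18 arrays. The naive group had neither resection nor transfusion. The PHx group had partial hepatectomy (PHx), in which 50% of the liver mass was removed. The bleeding group had the same resection and a controlled loss of 3 ml of blood through the femoral artery, with no fluid given back. The F-RBC group was bled, then resected, and then resuscitated with fresh red blood cells. The S-RBC group was treated in the same order with red blood cells stored for 7 days. The HAES group had resection and bleeding and was given the fluid HAES 10%. The livers were taken on day 1 after PHx. All 5 operated groups share the resection, and no group was bled or transfused without it, so a difference from naive liver in any of them includes the surgery itself. The red blood cells were prepared from rat heart blood, and stored cells were kept in CPDA-1 at 4 °C.

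In the acute phase response, cytokines reach the hepatocyte from macrophages and other cells, and the hepatocyte changes the set of proteins that it secretes into plasma. Interleukin-6 (IL-6) and related cytokines act through the receptor subunit gp130 and the transcription factor STAT3, while interleukin-1 acts mainly through NF-κB and C/EBP proteins. Liver resection is a known trigger of this response, and IL-6 is also known for its part in the start of liver regeneration. In the rat, α2-macroglobulin, the product of A2m, is a major acute phase protein, whereas C-reactive protein, the product of Crp, already circulates at a high level in healthy rats.

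The start regions of the genes are shown because STAT3 and C/EBP proteins are the factors by which these genes are classically controlled. RefSeq promoter sequences of the rat build GRCr8 were at hand for 8 of the 10 genes (A2m and Lbp had none). The 250 bases before each start were searched on both strands for CTGGGAA, the core of the acute phase element bound by STAT3, for the palindromic STAT site TTCNNNGAA, and for the C/EBP site TTGCNNAA. The first motif was found in 3 of the 8 members (Itih4, Lcn2 and Serpina3n) and in 9.56% of 33469 promoters. The second was found in 2 of 8 (Itih4 and Serpina3n) and in 7.67% of all promoters, and the third in 4 of 8 (Cp, Itih4, Lcn2 and Orm1) and in 9.22%. In Itih4 and Serpina3n the first motif lies on the other strand and overlaps the second. Below, each stretch is given on the strand of its gene from 5′ to 3′, with the matched letters in capitals.
Itih4, chr16:6086884-6086916, + strand, bases 101 to 69 before the start, STAT motifs: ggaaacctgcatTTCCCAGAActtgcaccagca
Serpina3n, chr6:129088257-129088289, + strand, bases 135 to 103 before the start, STAT motifs: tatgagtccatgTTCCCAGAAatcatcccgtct
Lcn2, chr3:36081952-36082030, − strand, bases 250 to 172 before the start, CTGGGAA and then a C/EBP motif: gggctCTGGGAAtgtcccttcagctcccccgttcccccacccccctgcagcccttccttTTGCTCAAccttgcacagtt
Orm1, chr5:81788374-81788405, + strand, bases 135 to 104 before the start, C/EBP motif: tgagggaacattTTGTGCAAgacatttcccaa
Cp, chr2:104368586-104368617, + strand, bases 84 to 53 before the start, C/EBP motif: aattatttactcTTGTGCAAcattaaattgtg
Itih4, chr16:6086741-6086772, + strand, bases 244 to 213 before the start, C/EBP motif: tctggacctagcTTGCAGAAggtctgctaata
Crp, Itih3 and Spink1 held none of the 3 motifs in this window. A match is a stretch of letters and was not measured as a bound site.

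The levels are intensities of a probe set on the linear scale as deposited, and fold changes were computed on log2(intensity + 16), which understates the change of dim genes. Differences were tested with limma over all 18 arrays, with p-values adjusted by Benjamini-Hochberg over 36685 probe sets and a threshold of 0.05. The replicates are separate rats by their labels. Liver is a mixed tissue, so fewer cells of a type and less RNA per cell cannot be told apart. Hepatocyte genes were present on every array, for example Apob at 2306 to 4039 and Fabp1 at 1397 to 2656. The array medians ranged from 16.1 to 18.6 in naive liver, from 17.6 to 19.1 after PHx, from 19.7 to 21.4 after bleeding, from 20.9 to 22.7 after F-RBC, from 17.98 to 20.1 after S-RBC and from 16.8 to 23.0 after HAES. The members lay at the bright end of the array, and the share of probe sets dimmer than a member ran from 94.99% for Spink1 to 99.9% for Serpina3n.

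Most of the acute phase genes had higher levels in all 5 groups with PHx than in naive liver, and the size of the change differed widely between members. Lcn2, A2m, Lbp and Orm1 passed the threshold in each of the 5 groups, with log2 fold changes between 1.90 and 6.20, and Itih4 did so with 0.61 to 0.72. Spink1 was higher by 1.78 to 3.11 but varied strongly between rats, Cp and Serpina3n were higher by 0.30 to 0.80, and Crp and Itih3 did not pass in any group. Members past the threshold, all of them higher, numbered 5 of 10 after PHx (0.245% of all probe sets passed as higher), 5 after PHx and bleeding (0.57%), 5 after F-RBC (4.9%), 8 after S-RBC (2.56%) and 6 after HAES (1.78%). The median log2 fold change of the 10 members was 1.48, 1.60, 1.23, 1.56 and 1.39 in the same order, beside 0.03, 0.06, 0.14, 0.06 and 0.05 over all probe sets. In an F-test over the 6 groups 8 of 10 members passed, and 6.59% of all probe sets did. That count was 5 when any 1 of 9 arrays was left out, namely naive replicates 1 or 2, PHx replicates 1, 2 or 3, bleeding replicates 1 or 2, S-RBC replicate 1 or HAES replicate 1. With the compared groups alone in the fit, Itih4 passed after F-RBC and not in the other 4 groups, Cp and Serpina3n did not pass after S-RBC, and Spink1 passed after PHx. The members close to the threshold of the F-test were Cp (adjusted p = 0.043), Spink1 (0.048) and Serpina3n (0.048).

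**Figure D1:**
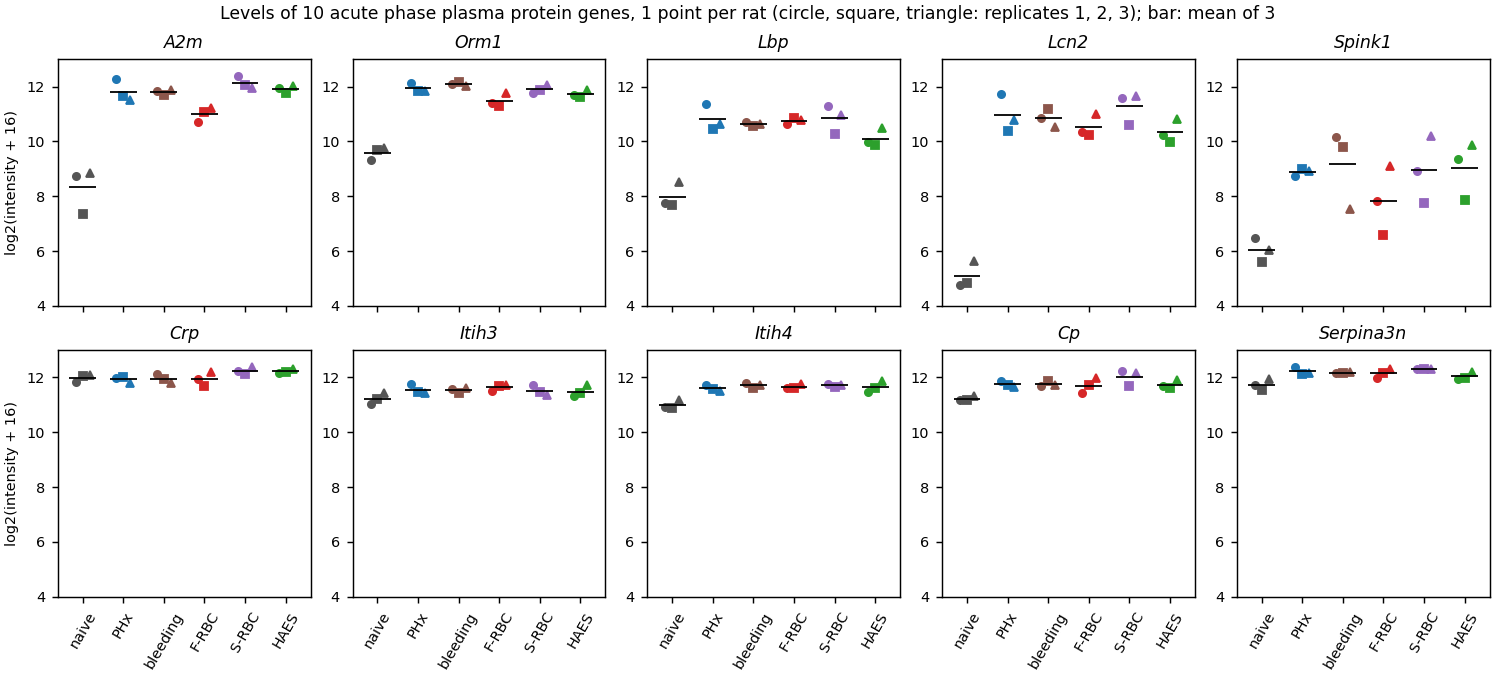
Level of each of the 10 genes as log2(intensity + 16) on the vertical axis, by group on the horizontal axis, with 1 point per rat (circle, square and triangle are replicates 1, 2 and 3) and a bar at the mean of 3. Lcn2, A2m, Lbp, Orm1 and Spink1 stand far above naive liver in the 5 groups with PHx, while Crp and Itih3 stay near the naive level.

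In 8 of the 10 members all 15 arrays with PHx lay above the 3 naive arrays, which held for 1.2% of all probe sets. The exceptions were Crp, with 8 of 15 arrays above the highest naive array, and Itih3, with 10 of 15. The ratio of the highest to the lowest of the 15 arrays was 14.6 for Spink1, 3.43 for Lcn2, 3.19 for A2m and 2.86 for Lbp. For the other 6 members it lay between 1.33 and 1.80.

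**Figure D2:**
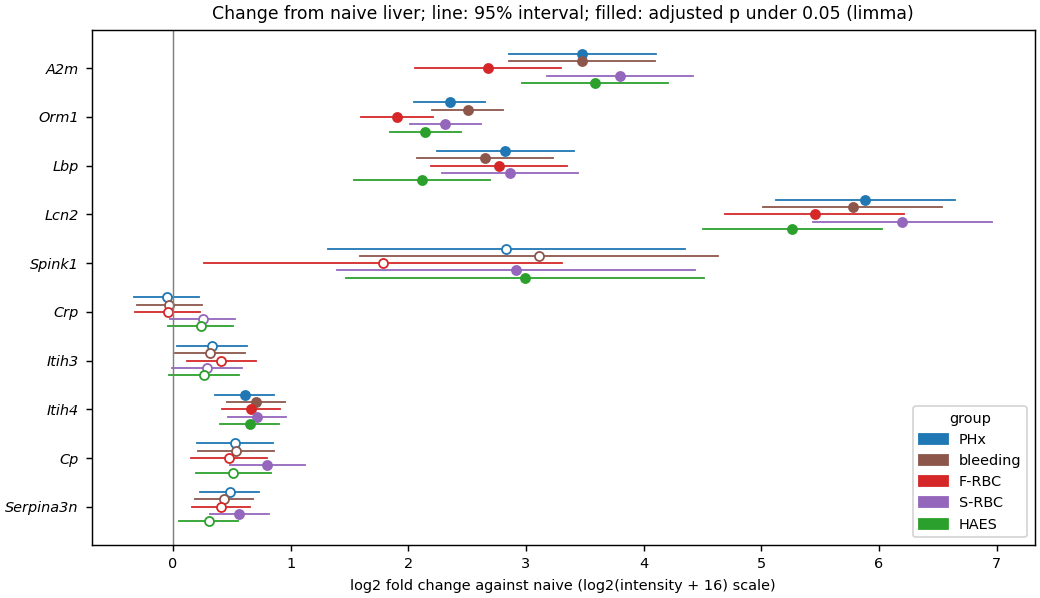
Log2 fold change of each gene against naive liver (horizontal axis, log2(intensity + 16) scale) in the 5 groups with PHx, with the 95% interval as a line and filled points where limma's adjusted p is under 0.05. All 5 points of A2m, Orm1, Lbp, Lcn2 and Itih4 are filled, and none of Crp or Itih3.

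Among the protease inhibitors, A2m, whose product traps proteases of many classes in plasma, had the largest change. Its intensity was 411, 148 and 449 in the 3 naive livers. After PHx it was 4906, 3169 and 2874. After PHx and bleeding it was 3605, 3329 and 3710. The naive livers were thus all far below the operated ones, and the bled animals were close to each other. The F-RBC livers had 1657, 2130 and 2376, the S-RBC livers 5290, 4260 and 3879, and the HAES livers 3888, 3452 and 4163. All 3 F-RBC arrays lay below all 12 arrays of the other groups with PHx, whose lowest value was 2874, as 0.106% of all probe sets did. It was the sole member, 1 of 10, with a group apart from the other 12 arrays in either direction, and 7.6% of all probe sets had such a group. Against naive liver the log2 fold change was 3.48 ± 0.29 (SE) after PHx (adjusted p = 1.07e-05), 3.48 after bleeding, 2.68 after F-RBC, 3.80 after S-RBC and 3.59 after HAES, with adjusted p between 2.80e-06 and 1.53e-04. The gene stayed past the threshold in each of the 5 groups with any 1 array left out.

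Spink1, which encodes a trypsin inhibitor best known from the pancreas, was the most variable member between rats. Naive livers had 72.9, 33.1 and 50.2, and the PHx livers had 406, 497 and 465. In the other groups the 3 rats were spread out, with 1126, 866 and 169 after bleeding, 213, 79.0 and 528 after F-RBC, 474, 202 and 1149 after S-RBC and 646, 217 and 929 after HAES. Every operated rat was above every naive rat, although the lowest F-RBC liver exceeded the highest naive liver by little. The SD on the log2 scale was 0.14 after PHx and between 1.05 and 1.42 in the 4 bled groups. The log2 fold change against naive liver was 2.83 ± 0.72 after PHx (adjusted p = 0.114), 3.11 after bleeding (0.051), 1.78 after F-RBC (0.141), 2.92 after S-RBC (0.035) and 2.99 after HAES (0.033). The S-RBC call was lost without any 1 of the naive arrays or S-RBC replicates 1 or 3 (adjusted p up to 0.107), and the change was 3.51 without replicate 2. The HAES call was lost without any 1 of the naive arrays or HAES replicates 1 or 3 (up to 0.171), and the change was 3.58 without replicate 2, while after bleeding it was 3.92 and past the threshold without bleeding replicate 3. The related gene Spink1l had its own probe set, at a mean log2 level of 10.72 in naive liver and between 10.52 and 11.02 in the groups with PHx.

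Pancreatic tissue could also carry Spink1, so acinar markers were read on the same arrays. None of the 13 measured acinar markers passed the threshold in any group against naive liver or in the F-test over the 6 groups. Their summed intensity was 339 to 500 in naive liver and 324 to 423 after PHx, 438 to 474 after bleeding, 337 to 438 after F-RBC, 485 to 523 after S-RBC and 389 to 532 after HAES. Prss1, which encodes trypsinogen, was between 0.117 and 9.41 on all 18 arrays, and Cela1, an elastase, between 21.0 and 49.8. The sums depend strongly on the amylase gene Amy2a3, which was between 90.3 and 379, while no other marker of the list exceeded 49.8. Prss1 was higher after S-RBC than after bleeding by 0.49 (adjusted p = 0.031), at intensities below every array median. In that comparison 5 of the 13 markers were higher and 8 lower, with a median log2 fold change of −0.11.

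Itih4 and Itih3 encode heavy chains of the inter-α-trypsin inhibitor family, and Itih4 had the firmer change. Its intensity was 1930, 1885 and 2316 in naive livers and 3395, 3080 and 2882 after PHx. It was 3520, 3107 and 3371 after bleeding, 3140, 3144 and 3435 after F-RBC, 3483, 3190 and 3398 after S-RBC and 2815, 3126 and 3743 after HAES. The groups with PHx overlapped each other, and none of their arrays reached down to the naive range. Its log2 fold change was 0.61 ± 0.12 after PHx (adjusted p = 0.037), 0.71 after bleeding (0.0092), 0.67 after F-RBC (0.0048), 0.72 after S-RBC (0.0031) and 0.65 after HAES (0.0055). After PHx alone the call was lost without naive replicate 1 or 2 or any 1 of the 3 PHx arrays (adjusted p up to 0.184), and after bleeding it was lost without naive replicate 2 or bleeding replicate 1 or 3 (up to 0.066). Itih3 was at 2066, 2359 and 2762 in naive livers and between 2566 and 3465 in the 15 operated livers. Its log2 fold change lay between 0.26 and 0.41, with an SE of 0.14, and the adjusted p was lowest after F-RBC (0.089). The group ranges overlapped with naive liver except after F-RBC, where the livers had 2897, 3255 and 3383 (27.6% of all probe sets were without overlap and higher there).

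Serpina3n encodes a serine protease inhibitor. Naive livers had 3336, 2966 and 3965, PHx livers 5273, 4445 and 4593, bleeding livers 4588, 4518 and 4678, F-RBC livers 3974, 4532 and 5102, S-RBC livers 5088, 4995 and 5024 and HAES livers 3967, 3988 and 4678. The S-RBC livers were almost alike, and the lowest HAES liver lay just above the naive range. Against naive liver it was higher by 0.57 ± 0.12 on the log2 scale after S-RBC (adjusted p = 0.014). The value was 0.48 after PHx (0.099), 0.43 after bleeding (0.094), 0.41 after F-RBC (0.051) and 0.30 after HAES (0.220). Without naive replicate 1 or 2 the S-RBC call was lost (adjusted p up to 0.065). Of its close relatives on the array, Serpina3c had a mean log2 level of 12.34 in naive liver and 11.39 to 11.77 in the groups with PHx. Serpina3l had 10.63 in naive liver and 9.83 to 10.22 in the groups with PHx. Serpina3m had 10.46 in naive liver, 10.79 after PHx, 10.67 after bleeding, 9.40 after F-RBC, 11.16 after S-RBC and 11.10 after HAES. Whether probes of this gene family respond to each other's RNA was not tested.

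Of the carrier proteins, Orm1, which encodes α1-acid glycoprotein, a binder of lipophilic compounds and drugs, had the larger change. Naive livers had 616, 802 and 854. PHx livers had 4451, 3600 and 3677, and bleeding livers had 4301, 4521 and 4171. After F-RBC the values were 2687, 2513 and 3424. After S-RBC they were 3460, 3732 and 4248, and after HAES 3310, 3101 and 3741. The 3 F-RBC arrays were below those of the PHx, bleeding and S-RBC groups, and they overlapped with HAES. Of all probe sets, 3.59% were so against PHx, 6.04% against bleeding and 6.42% against S-RBC. The gap to S-RBC was narrow, from 3424 to 3460. The log2 fold change against naive liver was 2.35 ± 0.14 after PHx (adjusted p = 1.23e-07), 2.50 after bleeding, 1.90 after F-RBC, 2.32 after S-RBC and 2.15 after HAES, and it passed with any 1 array left out. Its SE was the smallest among the 5 members with changes above 1 in every group.

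Cp encodes ceruloplasmin, which carries copper and oxidises iron. Its intensity was 2285, 2309 and 2557 in naive livers, 3760, 3349 and 3220 after PHx, and 3316, 3714 and 3350 after bleeding. The F-RBC livers had 2721, 3365 and 3980, the S-RBC livers 4808, 3278 and 4571, and the HAES livers 3286, 3124 and 3850. All 15 operated livers exceeded the naive ones, with S-RBC replicates 1 and 3 above all others. On the log2 scale the change was 0.80 ± 0.15 after S-RBC (adjusted p = 0.0070), and this call held with any 1 array left out (adjusted p up to 0.038). It was 0.53 after PHx (0.170), 0.53 after bleeding (0.105), 0.48 after F-RBC (0.072) and 0.51 after HAES (0.088).

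Of the proteins that bind microbial products, Lcn2, which encodes lipocalin 2, a binder of bacterial iron carriers, had the largest change of all members. Naive livers had 11.2, 12.5 and 33.4, beside array medians of 16.1, 18.6 and 17.9. PHx livers had 3371, 1313 and 1728, bleeding livers 1836, 2287 and 1466, and F-RBC livers 1290, 1196 and 2026. S-RBC livers had 3047, 1516 and 3202 and HAES livers 1183, 984 and 1797. The 5 groups with PHx overlapped each other, apart from the gap to naive liver of more than an order of magnitude. The log2 fold change was 5.88 ± 0.36 after PHx (adjusted p = 1.23e-07), 5.78 after bleeding, 5.46 after F-RBC, 6.20 after S-RBC and 5.27 after HAES. The size of this change depends on the constant added before the logarithm, and it ran from 4.63 to 6.79 after PHx with constants of 64 and 1. The ratio of the mean intensities was 112 after PHx and between 69.5 and 136 in the other groups.

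Neutrophils also make Lcn2, and 2 neutrophil genes rose past the threshold beside it. S100a8 and S100a9, which encode the subunits of calprotectin, rose by 1.54 (adjusted p = 0.021) and 1.42 (0.041) after PHx, and S100a8 rose by 1.22 (0.020) after S-RBC. Of 15 measured neutrophil markers these were the ones that passed in any group against naive liver. After HAES they were lower than after PHx by 1.50 (0.0083) and 1.65 (0.0064), and S100a9 was lower than after bleeding by 1.15 (0.049). The summed intensity of the list was 177 to 204 in naive liver, 344 to 476 after PHx, 268 to 490 after bleeding, 248 to 342 after F-RBC, 273 to 352 after S-RBC and 182 to 238 after HAES. Mpo, which encodes the myeloperoxidase of neutrophil granules, was between 9.52 and 18.6 on all 18 arrays, and Elane, which encodes neutrophil elastase, between 6.85 and 21.4. Counted without the threshold, 13 of the 15 markers were higher than in naive liver after PHx and 14 after bleeding. The count was 14 after F-RBC, 13 after S-RBC and 11 after HAES. The share of all probe sets that were higher was not counted. HAES livers, with the lowest sums of the operated groups, also had the lowest mean of Lcn2 among them. The other groups did not keep this order. S-RBC livers had the highest mean of Lcn2, while their middle sum (309) was below those after PHx (375), bleeding (373) and F-RBC (312). The part of neutrophils in the level of Lcn2 was not tested.

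**Figure D3:**
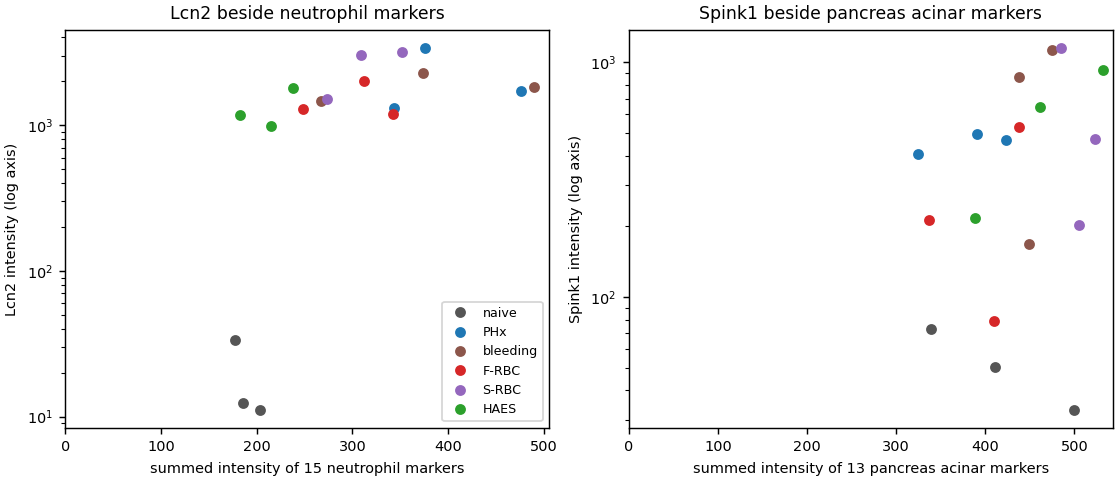
Left, Lcn2 intensity (log axis) against the summed intensity of 15 neutrophil markers, and right, Spink1 intensity (log axis) against the summed intensity of 13 pancreas acinar markers, with 1 point per rat coloured by group. Neutrophil sums run from 177 to 204 in naive liver and from 182 to 490 in the operated groups, and acinar sums from 324 to 532 over all rats.

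Lbp encodes the lipopolysaccharide-binding protein, which hands bacterial endotoxin to CD14. Naive livers had 200, 189 and 350. PHx livers had 2626, 1367 and 1568, and bleeding livers had 1673, 1482 and 1569. F-RBC livers had 1585, 1810 and 1752, and S-RBC livers 2495, 1226 and 2002. HAES livers, with 990, 918 and 1402, were all below the bleeding and F-RBC livers (11.1% of all probe sets were so after HAES against bleeding, and 13.8% were without overlap and higher after F-RBC than after HAES). The log2 fold change was 2.83 ± 0.27 after PHx (adjusted p = 5.87e-05), 2.65 after bleeding, 2.77 after F-RBC, 2.87 after S-RBC and 2.12 after HAES (5.37e-04), and it passed with any 1 array left out.

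Crp encodes C-reactive protein, which binds phosphocholine on microbes and damaged cells. Naive livers had 3603, 4195 and 4367, and the first 3 groups with PHx were within or near that range, with 4015, 4144 and 3563 after PHx, 4420, 3899 and 3574 after bleeding and 3892, 3274 and 4708 after F-RBC. S-RBC livers had 4779, 4425 and 5297 and HAES livers 4545, 4649 and 5094, so that these 6 lay above all 3 naive livers, as 13.6% of all probe sets did after S-RBC and 11.9% after HAES. The log2 fold change was −0.05 after PHx, −0.03 after bleeding and −0.05 after F-RBC, with an SE of 0.13 and 95% intervals that reach from −0.33 to 0.24. After S-RBC it was 0.25 (interval −0.02 to 0.53, adjusted p = 0.330) and after HAES 0.23 (−0.04 to 0.51, 0.432).

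The second question was whether bleeding and the fluid given afterwards changed the acute phase genes beyond PHx. In none of the 10 comparisons among the 5 groups with PHx did a member pass the threshold. The share of all probe sets past it was 0% for bleeding against PHx, 0.172% for F-RBC against PHx, 0.733% for S-RBC against PHx, 2.28% for HAES against PHx, 1.21% for F-RBC against bleeding, 2.06% for S-RBC against bleeding, 1.81% for HAES against bleeding, 0.496% for S-RBC against F-RBC, 0% for F-RBC against HAES and 0.00545% for S-RBC against HAES. At an unadjusted p under 0.05 in limma, the counts of members were 0, 2, 1, 2, 2, 1, 1, 4, 3 and 3 of 10 in the same order, beside 11.2%, 14.1%, 14.1%, 15.5%, 13.3%, 19.7%, 14.5%, 18.5%, 11.6% and 11.3% of all probe sets. The methods' t-test, a plain t-test per probe set, gave 0, 1, 1, 1, 2, 1, 1, 1, 2 and 1 at that level, beside 5.58% to 15.9% of all probe sets, and 0 after adjustment.

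**Figure D4:**
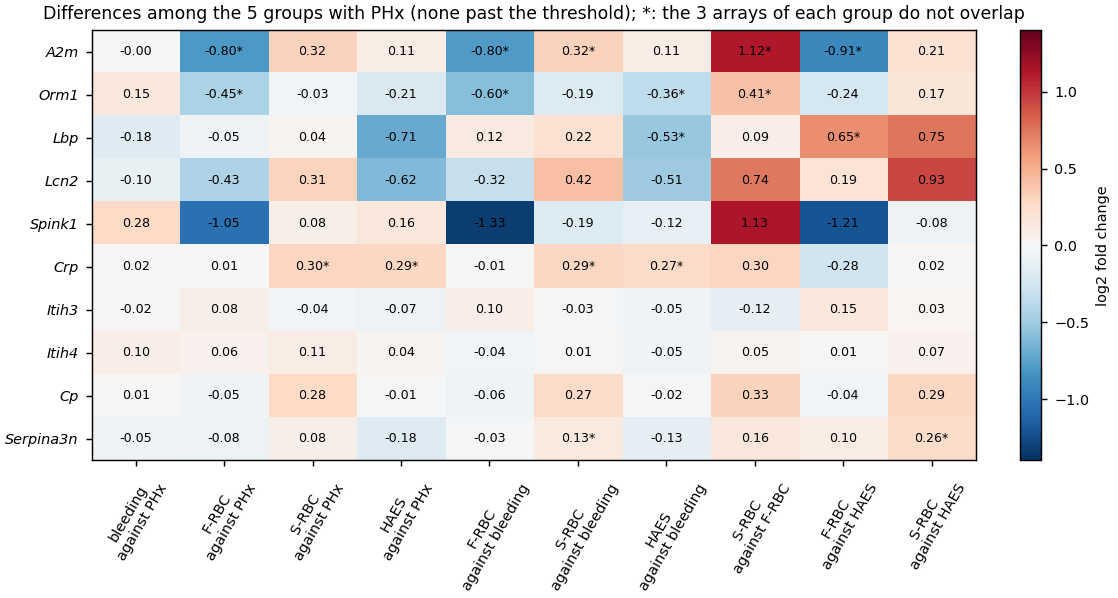
Log2 fold changes (colour and printed value) of the 10 genes (rows) in the 10 comparisons among the groups with PHx (columns), with a star where the 3 arrays of each group do not overlap. None passed the threshold, and the F-RBC columns hold the lowest values of A2m, Orm1 and Spink1.

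Bleeding without resuscitation left the members close to PHx alone. The log2 differences between bleeding and PHx ran from −0.18 (Lbp) to 0.28 (Spink1), and for A2m the difference was 0.00, with a 95% interval from −0.62 to 0.62. For Orm1 it was 0.15 (−0.16 to 0.46). The data thus leave room for a change of either sign in both genes.

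After F-RBC, A2m had lower values than in the other operated groups, short of the threshold. Orm1 had its lowest mean of the operated groups there, also short of the threshold, and its arrays overlapped with HAES. For A2m the log2 difference was −0.80 against PHx (95% interval −1.42 to −0.18, adjusted p = 0.246), −0.80 against bleeding (−1.42 to −0.18, 0.222) and −0.91 against HAES (−1.53 to −0.28, 0.269), and S-RBC was 1.12 above F-RBC (0.50 to 1.74, 0.080). These comparisons share the F-RBC arrays. The 3 F-RBC arrays did not overlap with the other group in any of the 4, which held for 3.59% of all probe sets in being lower than PHx, 6.04% in being lower than bleeding, 2.6% in being lower than HAES and 6.42% in being higher after S-RBC than after F-RBC. Over all alternative settings the difference of A2m kept its sign, from −0.95 to −0.57 against PHx and from 0.98 to 1.24 for S-RBC against F-RBC. The F-RBC arrays had the higher array medians given above, and centring each array on its median moved the median difference of all probe sets from 0.10 to −0.05 for F-RBC against PHx and from 0.14 to −0.04 for F-RBC against naive liver.

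For Orm1 the log2 difference was −0.60 ± 0.14 between F-RBC and bleeding (adjusted p = 0.053), −0.45 between F-RBC and PHx (0.200) and −0.24 between F-RBC and HAES. S-RBC was 0.41 above F-RBC (0.146). The difference from bleeding passed the threshold in 7 of 16 alternative settings, among them quantile normalization, median centring and leaving out F-RBC replicate 3, and it ran from −0.73 to −0.51 over them. Spink1 was lower after F-RBC by 1.05 than after PHx and by 1.33 than after bleeding on the log2 scale, with overlapping arrays and an SE of 0.72.

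The S-RBC group had the highest mean among the 5 groups with PHx for 7 of the 10 members (A2m, Lbp, Lcn2, Crp, Itih4, Cp and Serpina3n). This count was 7 with median centring and 3 with quantile normalization (A2m, Lcn2 and Cp). How often S-RBC was highest over all probe sets was not counted, so the count cannot be read as a trait of the members. Against F-RBC, Lcn2 was higher after S-RBC by 0.74 (95% interval −0.02 to 1.50, adjusted p = 0.282) and Cp by 0.33 (0.01 to 0.65, 0.261). Crp was higher after S-RBC than after PHx by 0.30 (adjusted p = 0.301) and after HAES than after PHx by 0.29 (0.304), without overlap of arrays in either, as in 10.7% and 10.5% of all probe sets. Itih3 and Itih4 differed by no more than 0.15 in any of the 10 comparisons.

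HAES livers had the lowest mean of the 5 groups for Lbp, Lcn2, Itih3 and Serpina3n. The share of all probe sets with their lowest mean after HAES was not counted. Lbp was lower after HAES by 0.71 than after PHx (95% interval −1.29 to −0.13, adjusted p = 0.212) and lower than after S-RBC by 0.75 (0.334). Lcn2 was lower after HAES than after S-RBC by 0.93 (0.354).

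Rats within a group differed in several members together. HAES replicate 3 had the highest value of its group in 10 of 10 members, F-RBC replicate 3 and naive replicate 3 in 9, PHx replicate 1 in 8 and S-RBC replicate 1 in 6, while S-RBC replicate 2 had the lowest value in 7. The array median of HAES replicate 3 was 23.0 beside 16.8 and 18.8 in the other HAES livers, and that of F-RBC replicate 3 was 22.7 beside 20.9 and 22.5. PHx replicate 1 had an array median of 18.2, between the 17.6 and 19.1 of the other PHx livers. The share of all probe sets highest or lowest on the same arrays was not counted, so nothing particular to the members can be read from these counts. The part of array brightness in these shared deviations was not tested.

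**Figure D5:**
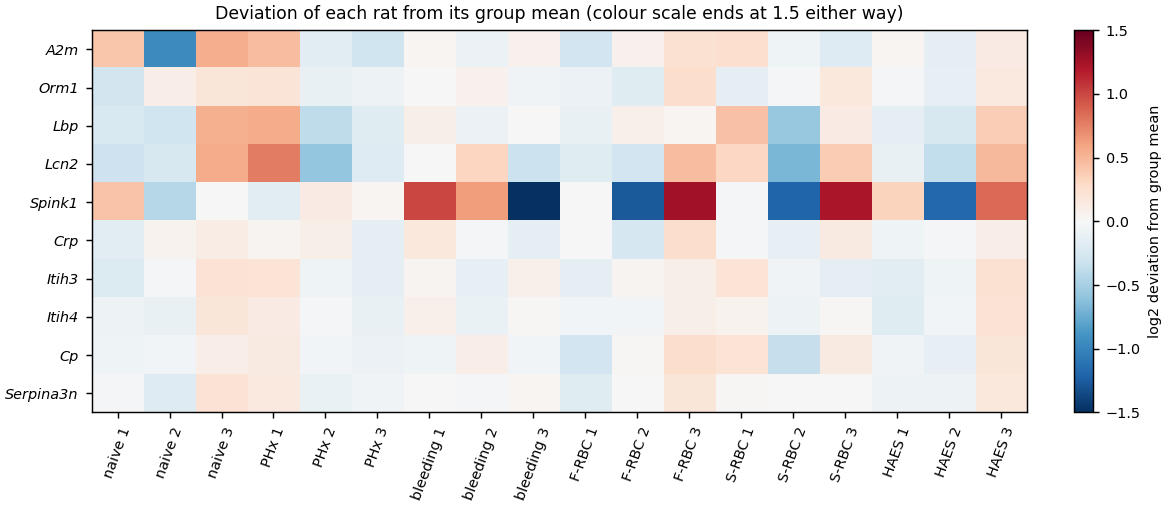
Deviation of each rat (columns) from the mean of its group on the log2(intensity + 16) scale (colour) for the 10 genes (rows). HAES replicate 3 is above its group mean in all 10 genes, and the largest deviations are those of Spink1 in the bled groups.

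Other positive acute phase proteins had smaller median changes. Of 19 measured (24 listed), 1 rose and 0 fell after PHx, 2 and 0 after bleeding, 5 and 1 after F-RBC, 8 and 0 after S-RBC and 2 and 0 after HAES, with median log2 fold changes of 0.37, 0.41, 0.38, 0.43 and 0.28. In the F-test over the 6 groups 3 passed. Hpx, which encodes the haem carrier hemopexin, rose in all 5 groups by 0.68 to 0.79. Hp, which encodes haptoglobin, the carrier of free haemoglobin, passed the threshold in the 4 bled groups, higher by 0.36 to 0.47. After PHx alone it was short of the threshold at a like level. Its mean log2 level was 11.96 in naive liver, 12.38 after PHx and 12.32 to 12.43 in the bled groups. Steap4, which encodes a metalloreductase, rose by 2.24 after S-RBC (adjusted p = 0.0024). Among the operated groups 1 gene of the list passed, Pla2g2a, which encodes a secreted phospholipase A2 and was higher after S-RBC than after bleeding by 3.06 (0.048). It is named here after its values were seen.

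Of 30 measured genes of the IL-6 and IL-1 pathway, 0 rose and 0 fell after PHx, 2 and 0 after bleeding, 3 and 0 after F-RBC, 2 and 1 after S-RBC and 0 and 1 after HAES, and 5 passed the F-test. Osmr, the receptor subunit for oncostatin M, rose by 1.52 after F-RBC (adjusted p = 0.046). Osm, its ligand, fell by 1.24 after S-RBC (0.019), and Junb, a transcription factor of the AP-1 family, fell by 1.29 after HAES (0.036). Among the operated groups, Bcl3, a partner of NF-κB, was lower after HAES than after bleeding by 1.59 (0.0078) and than after PHx by 1.09 (0.046), Osmr was lower after HAES than after PHx by 1.74 (0.043), and Osm was lower after S-RBC than after bleeding by 1.52 (0.0095). Il6 itself was between 5.48 and 17.4 on all arrays, within or below the range of the array medians. Stat3 had mean log2 levels of 8.51 in naive liver, 9.20 after PHx, 9.11 after bleeding, 9.02 after F-RBC, 9.05 after S-RBC and 8.47 after HAES (F-test adjusted p = 0.079).

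Of 15 measured negative acute phase proteins, whose levels classically fall in the response, 0 rose and 1 fell after PHx, 1 and 0 after bleeding, 0 and 1 after F-RBC, 1 and 1 after S-RBC and 0 and 0 after HAES. Serpina6, which encodes the corticosteroid-binding globulin of plasma, fell by 2.11 after PHx (adjusted p = 0.027) and fell by 2.08 after S-RBC (0.0062). Tfr2, a sensor of plasma iron, rose by 0.83 after bleeding (0.037) and by 0.85 after S-RBC (0.012). The median log2 fold changes of the list were −0.23, −0.18, −0.10, −0.27 and −0.13.

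Markers of other cell types were read on the same arrays, and their part in the levels of the members was not tested. The summed intensity of 12 Kupffer cell and macrophage markers was 2231 to 2708 in naive liver and 3151 to 4443 after PHx, without overlap. It was 1648 to 3645 after bleeding, 1713 to 4493 after F-RBC, 2460 to 3120 after S-RBC and 2158 to 2495 after HAES. The highest single values in these sums were those of Lyz2 (up to 1410) and Cd74 (up to 990). None of these 12 passed against naive liver or in the F-test. Cd74, which encodes the invariant chain of antigen presentation, was lower after HAES than after PHx by 1.36 (adjusted p = 0.046), and Vsig4, a complement receptor of Kupffer cells, was higher after S-RBC than after bleeding by 0.97 (0.045).

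Of 12 measured hepatocyte markers, 1 rose after HAES against naive liver and 0 in the other groups, and 3 passed the F-test. Cyp2e1, an ethanol-metabolizing enzyme, rose by 0.72 after HAES against naive liver (adjusted p = 0.046). It was higher by 1.30 after HAES (0.0027) and by 1.17 after F-RBC (0.020) than after PHx, and by 0.85 after HAES than after bleeding (0.028). Hpd, an enzyme of tyrosine breakdown, was higher by 0.51 and 0.52 in the same comparisons, and Cps1, the entry enzyme of the urea cycle, was higher after F-RBC than after bleeding by 0.76 (0.015). Of 9 stellate cell and fibroblast markers 2 passed the F-test, and their median log2 fold change against naive liver was 0.47 after PHx and −0.18 after S-RBC. Their summed intensity was 956 to 1206 in naive liver, 1001 to 1397 after PHx and 651 to 706 after bleeding, the last without overlap with naive liver. Dcn, which encodes decorin, rose by 1.20 after S-RBC against naive liver (0.010), and Lrat, a retinol-storing enzyme, was higher after F-RBC than after bleeding by 1.58 (0.018). Of 5 endothelial markers 1 passed the F-test, Cdh5, which encodes VE-cadherin and was lower after HAES than after PHx by 1.05 (0.0090) and after S-RBC than after PHx by 0.87 (0.049). None of 6 cholangiocyte markers (lowest p for Krt7 and Sox9) and none of 7 erythroid markers (Klf1 and Slc4a1) passed it, although Klf1 was higher after F-RBC than in naive liver by 0.89 (0.014).

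Likeness of pattern was measured as the root mean square difference over the 18 arrays after each gene was centred on its mean. Wfdc21 and Prg4 were the nearest 2 genes for A2m (0.60 and 0.67), Orm1 (0.20 and 0.29), Lcn2 (1.29 and 1.39), Spink1 (0.78 and 0.89) and Lbp (0.40 and 0.38). Their mean log2 levels were 9.36 and 8.05 in naive liver and lay between 11.35 and 11.97 and between 9.88 and 10.51 in the groups with PHx. The third gene was Pla1a for A2m, Kng1 for Orm1, Clic5 for Lbp, Cyp2b1 for Lcn2 and Emp2 for Spink1. Itih4 was nearest to Hpx (0.09), Hp (0.12) and C4bpa (0.12). Serpina3n was nearest to Fga (0.08), Defa5 (0.09) and Fgb (0.09), of which Fga and Fgb encode chains of fibrinogen. Itih3 was nearest to C3, Smcr8 and Serpinc1, Cp to Il13ra1, Tspan4 and St6gal1, and Crp to Suclg2, Azgp1 and Or51a25b. These differences were 0.08 to 0.13, beside an SD of 0.19 to 0.29 for these 3 members over the arrays. Defa5 and Or51a25b were dim, with group means of 4.45 to 4.98 and 4.05 to 4.33 on the log2 scale.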

How the data were processed

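Liver RNA of 18 rats was measured on Rat Gene 2.0 ST arrays, 1 per rat. The deposited values are probe set intensities on a linear scale, which the authors made with Affymetrix Power Tools and PLIER per the submitters' processing notes; the methods name RMA and PLIER. Software versions and genome build: not given in the sources used here. Of 36685 probe sets in the table, 18511 have 1 gene symbol, 575 have several and 17599 have none. Where a gene had several probe sets, the brightest was used. The members and gene lists were chosen with earlier results of these data known. The log2(intensity + 16) of the deposited values was fitted in limma 3.58.1 (R 4.3.3; lmFit and eBayes with a variance trend) with 1 mean per group over 18 arrays, leaving 12 residual degrees of freedom, and p-values are two-sided. Named were all 10 members, up to 4 genes of each other list with the smallest p of the F-test among those past the threshold (up to 2 where none passed), and the 3 genes nearest to each member. Apob, Fabp1, Mpo, Elane, Il6, Stat3, Amy2a3, Lyz2, Spink1l, Serpina3c, Serpina3l and Serpina3m were named as markers or relatives. No scan date or other batch was given, and 3 arrays per group limit the precision. The steps were tested on simulated data.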

Additional observations from a re-analysis of the deposited data

How the results depend on the processing

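The calls of A2m, Orm1, Lbp and Lcn2 against naive liver held under every alternative run but the methods' t-test. With Benjamini-Hochberg adjustment of that t-test, 0 members passed in each of the 5 comparisons with naive liver. At an unadjusted p under 0.05 that t-test took 7 or 8 of the 10 members in each. The share of all probe sets at that level ran from 9.12% to 22.3%. The paper states that its cut-off for this test was chosen to obtain gene sets of a reasonable size. After bleeding 8 members passed with quantile normalization and with array weights, after F-RBC 8 passed with array weights, and after S-RBC 5 passed where the fit held the compared groups alone. For F-RBC against bleeding 1 member (Orm1) passed with quantile normalization, median centring, a constant of 64, dimmer probe sets left out, array weights, no variance trend and without F-RBC replicate 3. With 1 array left out, the counts were 4 to 5 after PHx, 4 to 5 after bleeding, 5 to 7 after F-RBC, 6 to 8 after S-RBC, 5 to 6 after HAES, 0 to 1 for F-RBC against bleeding, 0 in the other comparisons and 5 to 8 in the F-test over the 6 groups. Of 1000 values of single members in the 5 comparisons with naive liver and in S-RBC against F-RBC, 903 kept direction and side of the threshold, 62 lost the threshold, 26 passed it and 9 changed sign. In the other 9 comparisons, none of which had a member past the threshold, 113 of 1460 values changed sign (A2m ran from −0.15 to 0.23 for bleeding against PHx) and 7 passed the threshold, all of them Orm1 for F-RBC against bleeding. Crp against naive liver became 0.0042 (without naive replicate 3) and 0.013 (without PHx replicate 3) after PHx. It became 0.023 (without naive replicate 3) and 0.038 (without bleeding replicate 3) after bleeding, and 0.010 (without naive replicate 3) and 0.083 (without F-RBC replicate 2) after F-RBC. For S-RBC against F-RBC, Itih4 became −0.026 with quantile normalization, and Lbp became −0.22 with array weights and −0.13 without S-RBC replicate 1. With 1 array left out, Crp ranged from −0.12 to 0.038 after bleeding and from −0.18 to 0.083 after F-RBC, and Lbp from −0.13 to 0.38 for S-RBC against F-RBC. The causes were not tested.

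No pairing of the rats by replicate number was seen, and a shared day or batch could not be tested. Deviations of same-numbered arrays correlated between −0.25 and 0.29, with 4 of 45 pairs over 0.1. Among pairs with different numbers, 17 of 90 were over 0.1, and 3 of 18 arrays correlated best with their own number. With the replicate block 5 members passed the F-test over the 6 groups, 4 passed after PHx, and the counts of the other comparisons were the same. The fit with other probe sets of the same gene was not run, since each member has 1 probe set. The deposited table carries no detection calls, so signal over background could not be read for the naive Lcn2 values.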
